A study of Neurospora crassa with 34 samples.

Results

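The genes described here are 10 genes of plant cell wall degradation in the filamentous fungus Neurospora crassa: the secreted enzymes cbh-1 (NCU07340), gh6-2 (NCU09680), gh5-1 (NCU00762), gh3-4 (NCU04952) and cdh-1 (NCU00206), the cellodextrin transporters cdt-1 (NCU00801) and cdt-2 (NCU08114), and the transcription factors clr-1 (NCU07705), clr-2 (NCU08042) and xlr-1 (NCU06971). They were chosen by name, for their role in the pathway, out of 9730 genes with a count. The study asked how chromosome rearrangements change H3K27me2/3, the methylation of lysine 27 of histone H3 that marks silent genes, and sequenced poly-A+ mRNA to see whether gene expression changed with it.

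N. crassa grows on dead plant material and digests it outside the cell. Secreted cellobiohydrolases and endoglucanases cut cellulose chains, cellobiose dehydrogenase passes electrons to monooxygenases that cut the chain by oxidation, and beta-glucosidases release glucose from short cellodextrins. The fungus also imports cellodextrins directly through CDT-1 and CDT-2. The zinc cluster proteins CLR-1 and CLR-2 are required for the response to cellulose and XLR-1 for the response to xylan, while simple sugars such as sucrose and glucose keep the enzyme genes low. The cultures measured here held sucrose and no cellulose was named in their medium, so all levels below are those of mycelium on a simple sugar.

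Each of 7 strains carries 1 rearrangement: T(IV->VI)ALS159, In(IL->IR)AR16, T(VI->III)OY329, T(II->IV)OY337, T(IVR->VL)UK2-32, T(VIL->IR)OY350 and UK3-41, in which a segment of linkage group VR sits in VIL. In the study's strain list AR16 is mat a and the others mat A, OY337 also carries al-2 and UK3-41 also carries inl. A further group is OY329 delta set-7, which by its label lacks set-7, the gene of the H3K27 methyltransferase. All cultures were started from conidia and grown for 16 h at 32 °C with shaking in Vogel's medium with 1.5% sucrose, and each has 2 biological replicate libraries. Each of the 7 strains is a single isolate, so a value belongs to that isolate as much as to its rearrangement. The label of the delta set-7 group names a pair of isolates, 1 for each library, so the spread of its replicates includes any difference between isolates. Wild-type mRNA was not analysed here, and the reference for a strain was the average log2 level in the other 6.

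Reads on genes ranged between 6435058 and 27994440 per library, and OY329 replicate 1 was the deepest. The libraries labelled delta set-7 held 40 and 16 reads of set-7 (3.47 and 2 CPM), against 255 and 49 reads (9.72 and 9.52 CPM) in OY329, so the transcript was lower (log2 fold change -1.79 ± 0.265 SE, adjusted p = 0.0036) but not at 0. Whether those reads lie outside the deleted part is not known, and the genotype is taken from the label. CPM is the read count of a gene scaled to the library size, and it was used here only to compare 1 gene between libraries. The 3 conidial marker genes eas, con-6 and con-10, which mark asexual spores, were above 0 in every library, and their summed level was 71.6 and 165 CPM in ALS159, 5051 and 15625 CPM in UK3-41, 7552 and 1818 CPM in OY337 and between 72.3 and 681 CPM in the other 10 libraries. The high sums were almost all eas (5022 and 15576 CPM in UK3-41, 7476 and 1785 CPM in OY337), while con-10 was at 15.8 and 36.7 CPM in UK3-41 and 61.2 and 30.3 CPM in OY337, and neither con-6 nor con-10 passed the test in either strain. In a bulk sample, fewer cells of a type and less RNA per cell cannot be told apart.

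Transcripts of the 10 genes were found on a sucrose medium in every strain, with 1 exception: gh3-4 had no read in ALS159. Levels differed among the 7 strains for 9 of the 10 genes by edgeR's quasi-likelihood F-test (adjusted p under 0.05), beside 78.5% of all 8170 genes tested. The gene that did not pass was cdt-2 (adjusted p = 0.0643), which passed with DESeq2 (0.00262) and in edgeR without AR16 replicate 1 (0.0138), AR16 replicate 2 (0.00961) or UK2-32 replicate 1 (0.0301). ALS159 had the lowest strain mean for 7 of the 10 genes, and UK2-32 had the highest for 5 of them.

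**Figure D1:**
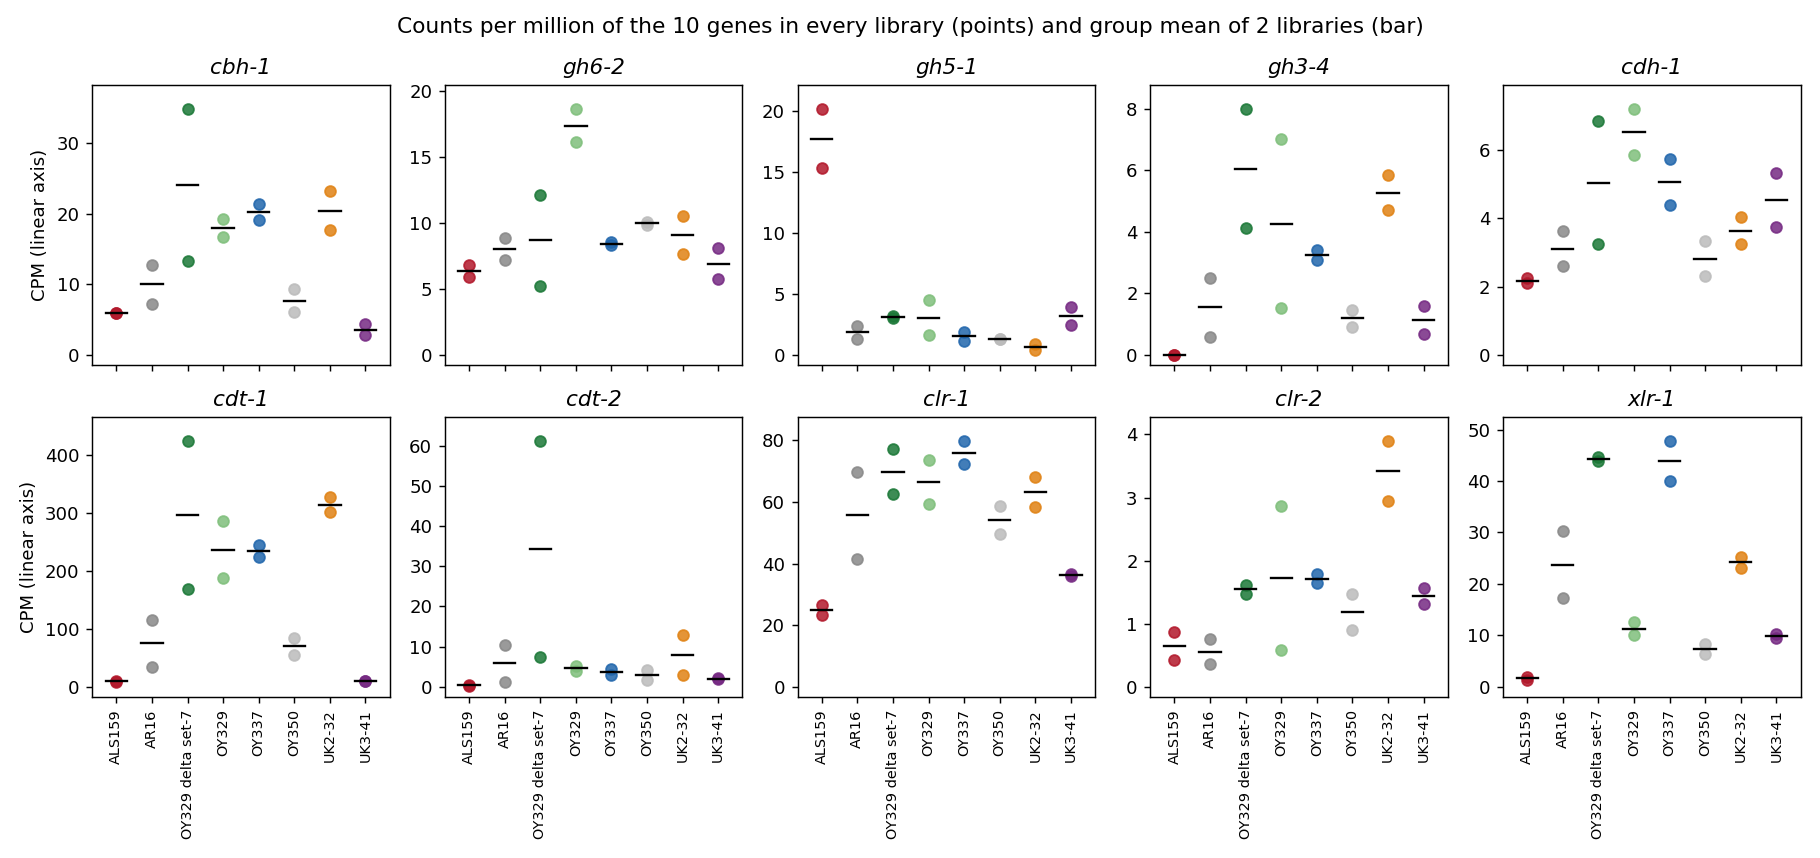
Level of each gene in CPM on a linear axis that differs between panels, with 1 point per library and a bar at the mean of the 2 libraries of a group. The gene gh5-1 stands at 15.3 and 20.1 CPM in ALS159 and at most 4.47 CPM in the other 6 strains, while cdt-1 is at most 10.5 CPM in ALS159 and UK3-41 and at least 34.6 CPM in the other 5 strains.

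Of the secreted enzymes, cbh-1 encodes the main cellobiohydrolase. It had 5.86 and 5.93 CPM in ALS159, 4.39 and 2.76 CPM in UK3-41, 9.33 and 6.01 CPM in OY350, 12.8 and 7.19 CPM in AR16, 19.3 and 16.7 CPM in OY329, 19.1 and 21.4 CPM in OY337, and 23.2 and 17.7 CPM in UK2-32. The libraries therefore fell into a high set of OY329, OY337 and UK2-32, which overlapped with each other, and a lower set of the other 4 strains, which did not reach them. OY350 and AR16 overlapped, and UK3-41 was below all the others. Against the other 6 strains cbh-1 was lower in UK3-41 (log2 fold change -1.77 ± 0.283, adjusted p = 0.000438) and in ALS159 (-0.93 ± 0.265, adjusted p = 0.0139). It was higher in UK2-32 (1.16 ± 0.22, adjusted p = 0.00409), OY337 (1.14 ± 0.218, adjusted p = 0.00948) and OY329 (0.95 ± 0.22, adjusted p = 0.00513). Where 1 of a strain's libraries is left out, the lone library is assumed to vary like the other groups. The call in UK3-41 held under every alternative run, whereas the adjusted p became 0.109 and 0.0862 without ALS159 replicate 1 or 2, 0.0957 and 0.137 without OY337 replicate 1 or 2, 0.0611 without OY329 replicate 1 and 0.0922 without UK2-32 replicate 1.

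The gene gh6-2 encodes the second cellobiohydrolase, which cuts cellulose from the other chain end. Its levels were 18.6 and 16.1 CPM in OY329, and between 5.71 and 10.5 CPM in the 12 libraries of the other strains. OY329 thus stood above every other strain and was called higher (log2 fold change 1.12 ± 0.163, adjusted p = 0.000517), also without either of its libraries. Below it, each strain in the order OY350, UK2-32, OY337, AR16, UK3-41 and ALS159 overlapped with the next. ALS159 was called lower (-0.59 ± 0.193, adjusted p = 0.0259), but the call did not hold without OY329 (adjusted p = 0.121), without TMM scaling (0.0733), with all 16 libraries in the fit (0.099) or without ALS159 replicate 1 or 2 (0.216 and 0.0814).

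The gene cdh-1 encodes cellobiose dehydrogenase, the electron donor of the oxidative enzymes. It had 2.24 and 2.1 CPM in ALS159, below the range of 2.3 to 7.19 CPM in the other 12 libraries, and was called lower there (log2 fold change -0.91 ± 0.266, adjusted p = 0.0156). In OY329 it had 5.87 and 7.19 CPM, above the range of 2.1 to 5.73 CPM in the others, and was called higher (0.91 ± 0.217, adjusted p = 0.00604). Both gaps to the nearest library were small. The ALS159 call was lost without ALS159 replicate 1 or 2 (adjusted p = 0.102 and 0.105).

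In ALS159 the endoglucanase gene gh5-1 went the other way from the rest of the enzymes. It had 15.3 and 20.1 CPM in ALS159 (144 and 163 reads), against a lowest value of 0.416, a median of 1.47 and a highest of 4.47 CPM in the 12 libraries of the other strains. ALS159 was therefore far above all of them, with a log2 fold change of 3.42 ± 0.297 (adjusted p = 1.83e-05), and this call held under all alternatives in which it could be tested. At the other end gh5-1 had 0.416 and 0.883 CPM in UK2-32, from 3 and 6 reads, and was called lower (-2.13 ± 0.556, adjusted p = 0.017). That call rested on the reference as well, since the adjusted p was 0.0839 when ALS159 was taken out of it, and it was lost without UK2-32 replicate 1 or 2 (0.176 and 0.0745). UK3-41, OY329, AR16, OY337 and OY350 each overlapped with the next in level.

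The beta-glucosidase gene gh3-4 had 0 reads in both ALS159 libraries, against 272 reads over the 12 libraries of the other strains (a lowest value of 0.59, a median of 2.04 and a highest of 7 CPM). A floor of 3 counts over both ALS159 libraries corresponds to 0.172 CPM, so gh3-4 was at least 16.2-fold lower than the mean of 2.77 CPM in the other strains (adjusted p = 0.00534, with a range over the alternatives of 7.37e-05 to 0.0487). The fitted log2 fold change of -7.42 depends on the fit at 0 counts and is no bound. Among the other strains it had 5.83 and 4.71 CPM in UK2-32, 1.52 and 7 CPM in OY329, 3.39 and 3.09 CPM in OY337, 2.5 and 0.59 CPM in AR16, 1.47 and 0.895 CPM in OY350, and 1.59 and 0.689 CPM in UK3-41. UK2-32 overlapped with OY329, and OY329 with OY337. UK2-32 and OY329 were both called higher than the other 6 strains (adjusted p = 0.0127 and 0.0284), but the mean of the others then holds the 0 of ALS159. With ALS159 out of the reference the log2 fold change was 1.46 in UK2-32 (adjusted p = 0.0831) and 0.87 in OY329 (adjusted p = 0.253), and the calls were also lost without UK2-32 replicate 1 or 2 (0.11 and 0.0683) and without OY329 replicate 3 (0.278).

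The same gene was the only one of the 10 on any of the lists in which the study marks a gene's H3K27me2/3 as gained or lost in a strain, namely that of gains in ALS159. The list holds 76 genes, all on linkage group IV, from which ALS159 carries a segment moved to VI. Of its 51 genes with enough reads to test, 38 were called lower in ALS159 and 3 higher, beside 25.6% lower and 26% higher of all tested genes. In the 15 genes on either side of gh3-4 and gh3-4 itself, 25 of the 31 genes were on the list, 23 could be tested, 19 were called lower and 2 higher. Of the genes next to gh3-4, NCU04951 had 160 and 147 CPM in ALS159, against a mean of 1185.2 CPM in the other strains. NCU04953 had 1.07 and 0.494 CPM, against a mean of 2.43 CPM. NCU04963, 8 genes away, had 1.07 and 1.11 CPM, against a mean of 356 CPM. The 2 higher genes include NCU04942, which is on the list, with 122 and 136 CPM, against a mean of 30.6 CPM. NCU04951, NCU04953 and NCU04942 were named after their values were seen. The members cbh-1, clr-1, clr-2 and xlr-1 lie on linkage group IV as well and were on none of the lists, as were cdt-1, cdt-2 and gh5-1 on I, cdh-1 on III and gh6-2 on V.

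**Figure D2:**
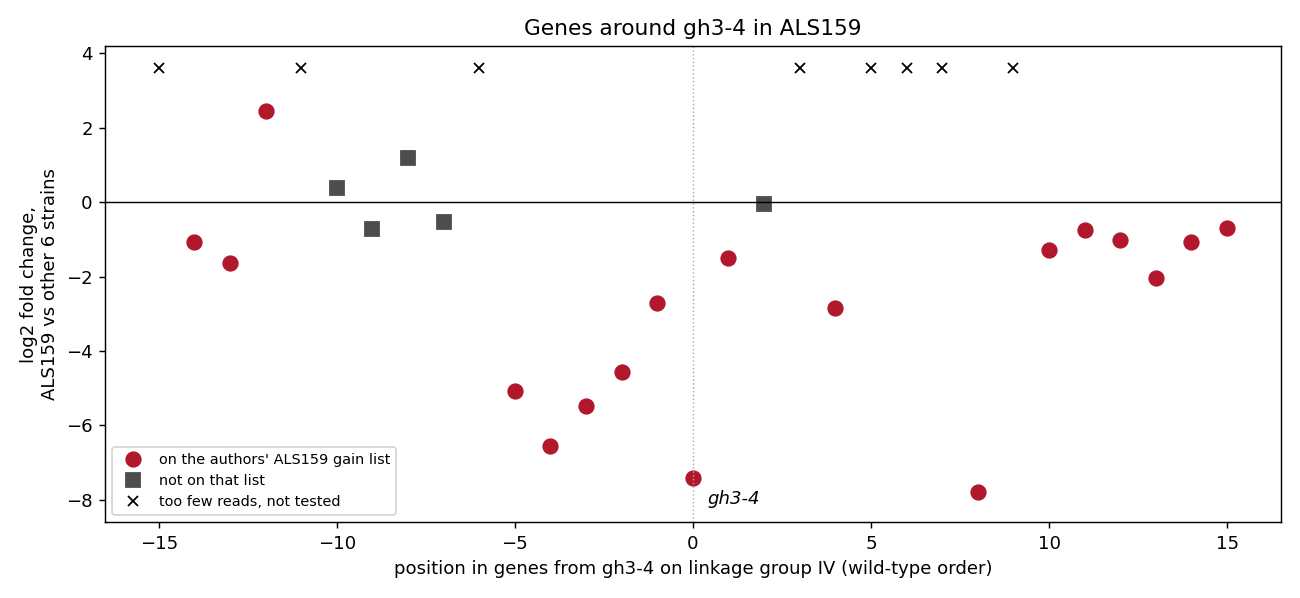
Log2 fold change in ALS159 against the other 6 strains (vertical axis) of gh3-4, at position 0, and the 15 genes on either side of it in the wild-type gene order of linkage group IV (horizontal axis). Of the 23 genes tested, on the study's list of H3K27me2/3 gains in ALS159 (red circles) or not (grey squares), 19 were called lower, while crosses mark genes with too few reads to test at no value, and genes at 0 reads, gh3-4 among them, stand at fitted values that are no bounds.

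The transporter gene cdt-1 showed the widest spread between strains for which a ratio can be given, 34.8-fold between the highest and the lowest strain mean. It had 301 and 327 CPM in UK2-32, 187 and 285 CPM in OY329, 223 and 245 CPM in OY337, 115 and 34.6 CPM in AR16, 84.4 and 54.5 CPM in OY350, 10.5 and 9.94 CPM in UK3-41, and 7.78 and 10.3 CPM in ALS159. UK2-32 stood alone at the top, and below it OY329 overlapped with OY337, AR16 with OY350 and UK3-41 with ALS159, with no overlap between these 3 pairs. Against the other 6 strains cdt-1 was lower in ALS159 (log2 fold change -3.45 ± 0.446, adjusted p = 0.000218) and UK3-41 (-3.24 ± 0.436, adjusted p = 0.000153). It was higher in UK2-32 (2.53 ± 0.278, adjusted p = 0.000335), OY329 (2.04 ± 0.285, adjusted p = 0.000457) and OY337 (2.03 ± 0.285, adjusted p = 0.00183). All 5 calls held under every alternative run. A short gene that overlaps cdt-1 in the reference annotation, NCU10770, had 0 reads in every library.

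The paralogous transporter gene cdt-2, whose protein also carries xylodextrins, had far noisier values. It had 0.426 and 0.247 CPM in ALS159 (4 and 2 reads), below the range of 1.18 to 13 CPM in the other strains, and was called lower there (log2 fold change -3.52 ± 1.05, adjusted p = 0.0176). Without ALS159 replicate 1 or 2 the adjusted p was 0.108 and 0.113. In the remaining strains the replicates differed by up to 8.9-fold, as with 10.5 and 1.18 CPM in AR16 and 2.91 and 13 CPM in UK2-32, and each strain overlapped with the next. UK2-32 had the highest mean and did not pass in edgeR (1.71, adjusted p = 0.0562), but passed with DESeq2 (0.0363), with OY329 left out (0.0414) and without AR16 replicate 1 or 2 (0.00768 and 0.0299).

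Among the regulators, clr-1 had the most even levels. It had 79.7 and 72.3 CPM in OY337, 73.8 and 59.5 CPM in OY329, 58.4 and 68.2 CPM in UK2-32, 69.9 and 41.4 CPM in AR16, 58.8 and 49.5 CPM in OY350, 36.5 and 36 CPM in UK3-41, and 23.2 and 26.7 CPM in ALS159. The first 5 strains overlapped in a chain, UK3-41 lay below them, and ALS159 lay below UK3-41. The gene was lower in ALS159 (log2 fold change -1.20 ± 0.192, adjusted p = 0.000725), which held under every alternative. The smaller calls depended on the fit: lower in UK3-41 (-0.57 ± 0.18, adjusted p = 0.0202, but 0.233 without TMM scaling and 0.11 and 0.111 without UK3-41 replicate 1 or 2), higher in OY337 (0.68 ± 0.163, adjusted p = 0.0248, but 0.138 with ALS159 out of the reference and 0.282 and 0.154 without OY337 replicate 1 or 2) and higher in OY329 (0.46 ± 0.165, adjusted p = 0.0397). The last of these was lost without any 1 of 8 libraries, namely ALS159 replicate 1 (0.0644), OY329 replicate 1 (0.329), OY337 replicates 1 and 2 (0.054 and 0.0651), OY350 replicate 2 (0.0607), UK2-32 replicate 1 (0.0646) and UK3-41 replicates 1 and 2 (0.0566 and 0.0583). It was also lost without TMM scaling (0.24, adjusted p = 0.276) and with ALS159 out of the reference (0.27, adjusted p = 0.252).

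The second regulator of the cellulose response, clr-2, was low in every library. It had 3.89 and 2.94 CPM in UK2-32, above the range of 0.354 to 2.86 CPM in the other strains, and was called higher there (log2 fold change 1.59 ± 0.408, adjusted p = 0.016). Without UK2-32 replicate 1 or 2 the adjusted p was 0.178 and 0.077. In ALS159 it had 0.426 and 0.865 CPM, from 4 and 7 reads, which overlapped with AR16 and was not past the threshold (-1.22 ± 0.554, adjusted p = 0.0866), although it passed with OY329 left out (0.0453) and without OY329 replicate 3 (0.0189). Without that library clr-2 was also called higher in OY329 (1.24, adjusted p = 0.0132) and lower in AR16 (-1.55, adjusted p = 0.0392).

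The xylan regulator gene xlr-1 separated the strains most sharply of the 3 regulators. It had 39.9 and 47.7 CPM in OY337, 25.3 and 23.1 CPM in UK2-32, 30.3 and 17.2 CPM in AR16, 12.5 and 10.1 CPM in OY329, 10.2 and 9.45 CPM in UK3-41, 8.27 and 6.4 CPM in OY350, and 1.92 and 1.36 CPM in ALS159. Only UK2-32 with AR16 and OY329 with UK3-41 overlapped among neighbours in this order. The gene was lower in ALS159 (log2 fold change -3.32 ± 0.292, adjusted p = 1.92e-05) and higher in OY337 (2.19 ± 0.175, adjusted p = 7.16e-05) and UK2-32 (1.19 ± 0.191, adjusted p = 0.00186), and these calls held under every alternative run. It was also called higher in AR16 (1.15 ± 0.19, adjusted p = 0.00601), but with ALS159 out of the reference the adjusted p was 0.088, and without AR16 replicate 1 it was 0.0655. The same change of reference brought xlr-1 past the threshold as lower in UK3-41 (-0.90, adjusted p = 0.0066), OY350 (-1.41, adjusted p = 0.0168) and OY329 (-0.64, adjusted p = 0.0452).

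**Figure D3:**
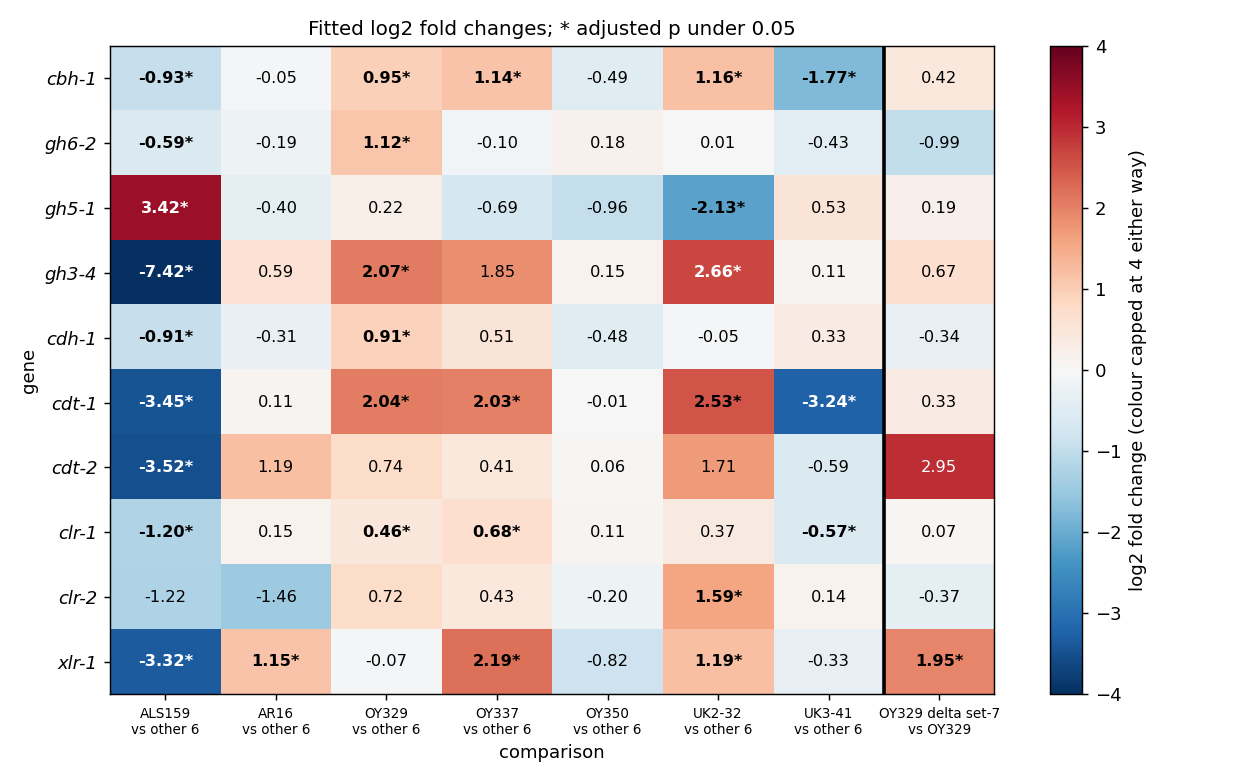
Fitted log2 fold changes of the 10 genes (rows) in each strain against the mean of the other 6, and in OY329 delta set-7 against OY329 (last column), with bold values and an asterisk where the adjusted p was under 0.05. The ALS159 column holds 8 lower calls and 1 higher call and the OY350 column holds none, and the value of -7.42 for gh3-4 is a fitted value at 0 reads.

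Counted by strain, ALS159 had 8 of the 10 genes called lower and 1 called higher, beside 25.6% of all tested genes lower and 26% higher. The median log2 fold change of the 10 genes was -1.21 there, with gh3-4 set to its bound or not, and that of all tested genes was 0. Without ALS159 replicate 1 or 2 the calls numbered 5 each time. In UK3-41 3 genes were called lower and none higher, where 26.5% of all genes were lower and 29.8% higher, so the share of lower calls was near the background. Without TMM scaling 2 genes were lower there and 1 higher, cdh-1 (0.63, adjusted p = 0.0321). With ALS159 out of the reference 6 genes were called in UK3-41. Those added were gh6-2 (-0.55, adjusted p = 0.0372) and xlr-1 (-0.90, adjusted p = 0.0066) as lower and gh5-1 (1.13, adjusted p = 0.0376) as higher.

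In OY329 6 genes were called higher and none lower, beside 26.2% higher and 21.6% lower of all genes. In UK2-32 5 genes were higher and 1 lower, beside 17.5% and 12.6% of all genes, and the calls fell to 2 and 3 without UK2-32 replicate 1 and 2. In OY337 4 genes were higher and none lower, beside 8.24% and 2.74% of all genes, with 2 calls without either OY337 library. In AR16 1 gene was higher and none lower, beside 6.27% and 3.07% of all genes, with 0 calls without AR16 replicate 1 and 2 calls without OY329 replicate 3. In OY350 0 of the 10 genes passed edgeR's test, beside 3.84% higher and 1.08% lower of all genes, with 1 gene at an unadjusted p under 0.05 and 1 gene called by DESeq2, xlr-1 in both cases, which edgeR also called without AR16 replicate 1 or 2. The median log2 fold change of the 10 genes was 0.83 in OY329, 1.17 in UK2-32, 0.59 in OY337, 0.03 in AR16, -0.10 in OY350 and -0.38 in UK3-41, against medians of all genes between 0 and 0.04. Without TMM scaling the median of all genes shifted by 0.30 in UK3-41, 0.11 in ALS159, 0.05 in OY337, 0.03 in AR16, -0.12 in OY350, -0.13 in UK2-32 and -0.23 in OY329, and the medians of the 10 genes became -0.08 in UK3-41, -1.11 in ALS159, 1.04 in UK2-32 and 0.61 in OY329. Higher genes then made up 72.7% of all calls in UK3-41 in place of 53%, 35.1% in OY329 in place of 54.8%, 43.5% in UK2-32 in place of 58.1% and 55.8% in OY350 in place of 78.1%. These comparisons share libraries, since each strain is in the reference of all the others.

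Libraries also differed in index length and in marker genes. OY329 replicate 1 and both delta set-7 libraries carried an 8-base index and the other 13 a 6-base index. Without OY329 replicate 1 only 6-base libraries were left among the 7 strains, and OY329 was then its replicate 3 alone, assumed to vary like the other strains. In that fit gh6-2 (log2 fold change 1.00), gh3-4 (2.95), cdh-1 (1.07) and cdt-1 (2.32) passed in OY329, and cbh-1 (0.84) and clr-1 (0.29) did not. The value of gh3-4 rested on that library, since it was 0.83 (adjusted p = 0.278) without replicate 3. The glycolytic gene gpd-1, taken as a gene that every cell uses, was lower in the strains where cdt-1 was lowest: it had 5937 and 9205 CPM in ALS159 and 6077 and 8203 CPM in UK3-41, and at least 12231 CPM in the other 12 libraries, with log2 fold changes of -1.11 (adjusted p = 0.00385) in ALS159 and -1.21 (adjusted p = 0.00186) in UK3-41. The other 2 genes of that list did not follow it. The actin gene act was higher in ALS159 (0.52, adjusted p = 0.00747) and at -0.02 in UK3-41 (adjusted p = 0.898), and the elongation factor gene tef-1 was at 0.04 in ALS159 (adjusted p = 0.854) and higher in UK3-41 (0.56, adjusted p = 0.00611). In UK2-32 gpd-1 was higher (0.66, adjusted p = 0.038) and act (-0.56, adjusted p = 0.0145) and tef-1 (-0.68, adjusted p = 0.01) were lower. The conidial marker con-10 was also low in ALS159, at 1.28 and 0.494 CPM, against 15.8 to 88.1 CPM in the other 6 strains. Their part in the levels of the 10 genes was not tested.

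The other genes of the pathway were read from 5 lists. In ALS159, of the other cellulases and beta-glucosidases 6 of 8 tested genes (10 listed) were lower and none higher, of the hemicellulases and pectinases 9 of 13 (19 listed) were lower and none higher, and of the genes of other sugar uptake and intracellular use 5 of 5 (6 listed) were lower. The genes of sugar uptake and use include NCU04963, which is on the study's list of H3K27me2/3 gains in ALS159, as is a monooxygenase gene. Of the other regulators 5 of 6 were lower. The lytic polysaccharide monooxygenases, which cut cellulose by oxidation, were split, with 3 of 11 (14 listed) lower and 2 higher, not above the shares of all genes (25.6% lower and 26% higher). The medians of these lists were -0.88, -1.70, -4.59, -0.91 and -0.30 on the log2 scale, against 0 for all genes. One monooxygenase gene, gh61-4, named here after its values were seen, had 14.2 and 19.9 CPM in ALS159, against at most 0.295 CPM in the other 6 strains (adjusted p = 1.66e-05), most of which had no read, so it was higher there along with gh5-1.

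UK3-41 showed calls in both directions in 4 of these lists, where 26.5% of all genes were lower and 29.8% higher. Of the hemicellulases and pectinases 7 were lower and 2 higher, of the other cellulases and beta-glucosidases 3 were lower and 3 higher, of the monooxygenases 3 were lower, a share near the background, and 5 higher, and of the genes of sugar uptake and use 3 were lower and 1 higher. Of the other regulators 4 were lower and none higher, or 2 and 1 without TMM scaling. The gene gh6-3, of the other cellulases and beta-glucosidases, is on the study's list of H3K27me2/3 gains in UK3-41. It was not low there, at 7.94 and 5.22 CPM, against 1.92 to 9.6 CPM in the other 6 strains. The beta-glucosidase gene gh3-3 had 80.9 and 103 CPM in UK3-41, against a median of 4.62 CPM in the others (log2 fold change 4.25 ± 0.275, adjusted p = 1.25e-06). The monooxygenase gene gh61-9 had 45.9 and 29.3 CPM there, against a median of 296 CPM (-2.86 ± 0.395, adjusted p = 0.00018), and NCU09170, of the hemicellulase and pectinase list, had 1.12 and 4.82 CPM, against a median of 161 CPM (-5.23 ± 1, adjusted p = 0.00128).

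In OY329 and UK2-32 the genes of the lists that edgeR called with TMM scaling were all higher, beside 26.2% of all genes higher in OY329 and 17.5% in UK2-32. Without TMM scaling 1 hemicellulase or pectinase and 1 other regulator were lower in OY329 and 1 other cellulase or beta-glucosidase was lower in UK2-32, and DESeq2 also called 1 gene of that last list lower in UK2-32. In OY329 these were 5 of 8 other cellulases and beta-glucosidases, 8 of 13 hemicellulases and pectinases, 3 of 11 monooxygenases, 3 of 5 genes of sugar uptake and use and 3 of 6 other regulators. In UK2-32 they were 9 of 13 hemicellulases and pectinases, 2 of 11 monooxygenases, 3 of 5 genes of sugar uptake and use and 3 of 6 other regulators, whereas 0 of 8 other cellulases and beta-glucosidases passed edgeR's test, with 2 at an unadjusted p under 0.05, gh7-1 and gh3-2, both at negative values, and 1 called lower by DESeq2. The shares of monooxygenases called higher were near the background in both strains. The pectinase gene gh28-1 had 1294 and 452 CPM in UK2-32 (adjusted p = 0.0106) and 52 and 2279 CPM in OY329 (adjusted p = 0.00228), where the replicates lie on both sides of most other strains. In OY337 all 5 tested genes of sugar uptake and use were higher, with a median log2 fold change of 2.41, beside 8.24% of all genes higher. The other lists had few calls there: 1 of 8 other cellulases and beta-glucosidases, 1 of 11 monooxygenases and 1 of 6 other regulators were higher. Of 13 hemicellulases and pectinases 0 passed, with 4 at an unadjusted p under 0.05. Among the other regulators cre-1, the carbon catabolite repressor that keeps these enzymes low on simple sugars, had 314 and 311 CPM in ALS159 (log2 fold change -0.77 ± 0.156, adjusted p = 0.00258), 283 and 277 CPM in UK3-41 (-0.95 ± 0.158, adjusted p = 0.000542) and between 453 and 845 CPM in the other 5 strains. The strains with lower cre-1 were thus also called lower for cbh-1 and cdt-1. AR16 and OY350, where cdt-1 was lower than in UK2-32, had 580 and 453 CPM and 660 and 624 CPM of cre-1, against 548 and 592 CPM in UK2-32. A part of cre-1 in the levels of these genes was not tested.

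**Figure D4:**
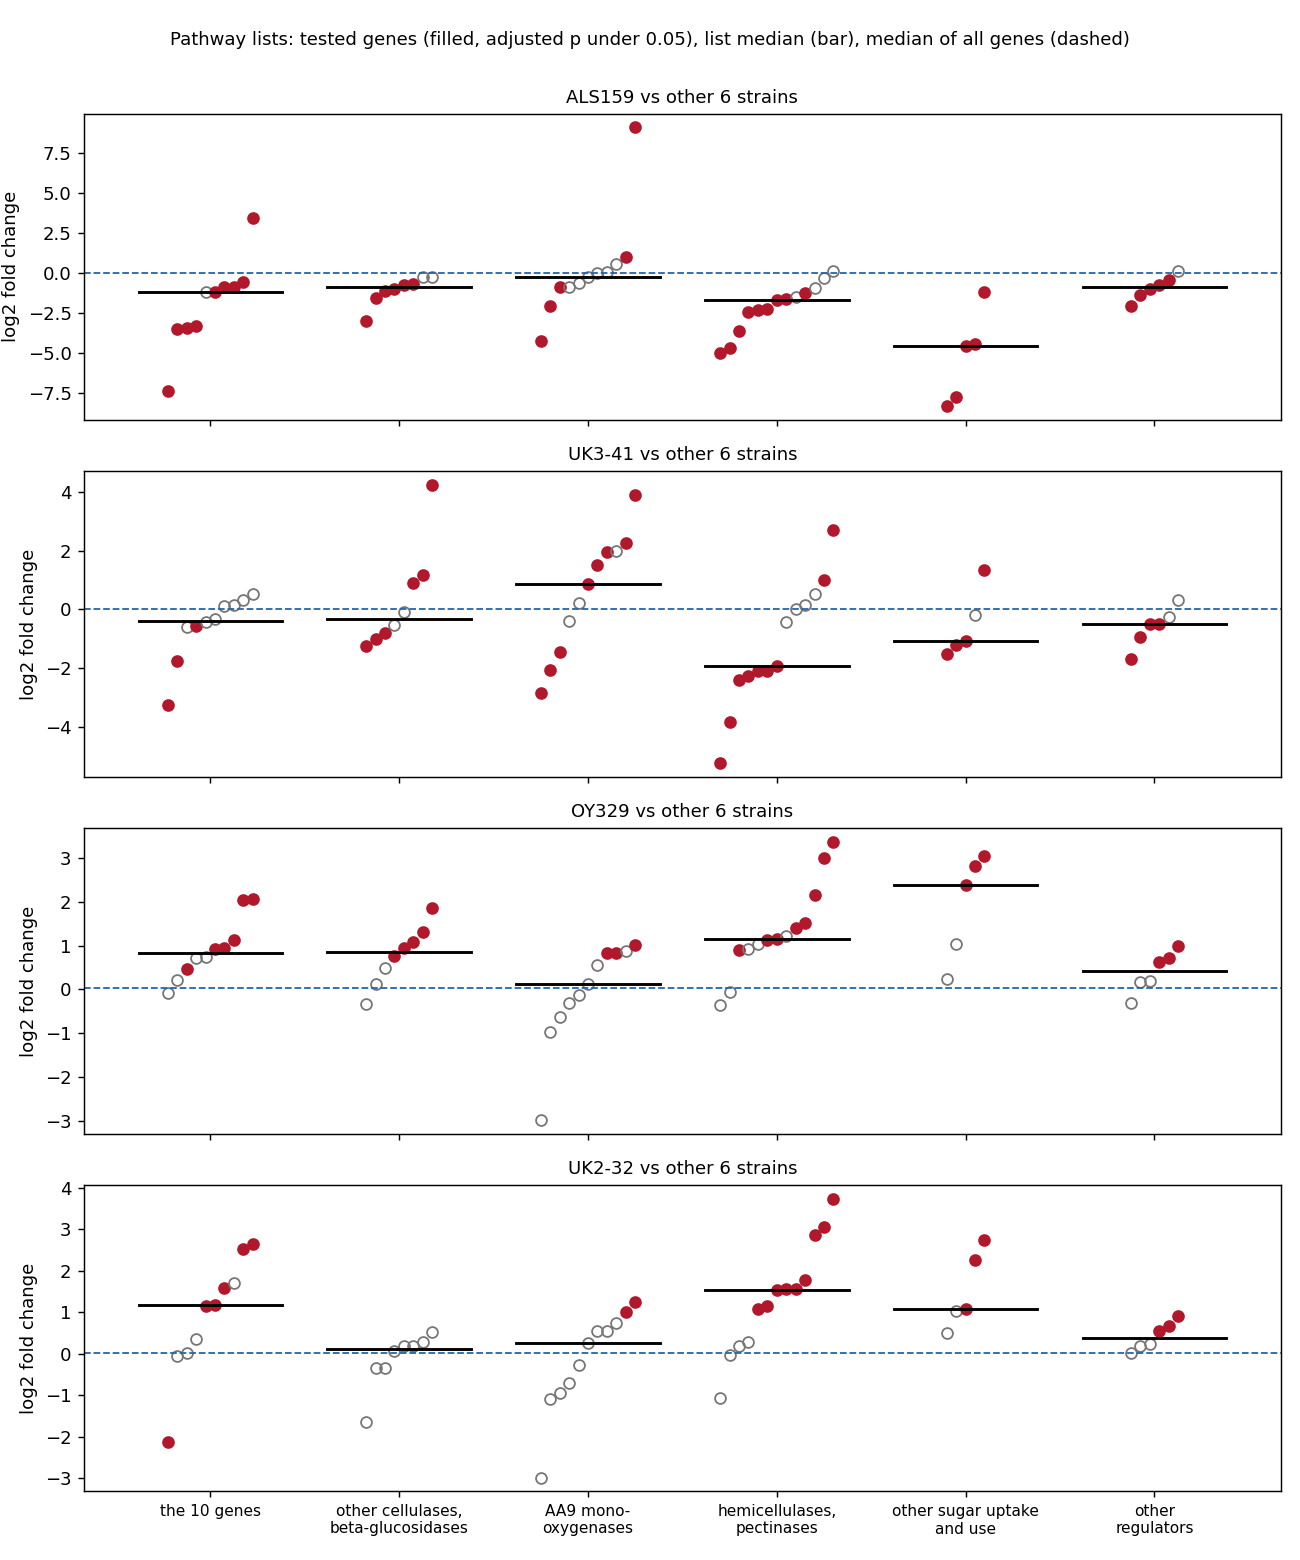
Log2 fold changes of the tested genes of the 10 named genes and of the 5 pathway lists in ALS159, UK3-41, OY329 and UK2-32 against the other 6 strains, on axes that differ between panels, with filled points past an adjusted p of 0.05, bars at list medians and a dashed line at the median of all tested genes. The medians in ALS159 run between -4.59 for sugar uptake and use and -0.30 for the monooxygenases.

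Setting the libraries labelled OY329 delta set-7 against OY329 asked how these genes differ with that label in the same rearrangement. Of the 10 genes 1 was called, xlr-1, which was higher, beside 4.84% higher and 2.7% lower of 8223 tested genes. Higher genes were 64.2% of all calls in this contrast, and 88.4% without TMM scaling, which shifted the median of all genes by 0.20. It had 43.8 and 44.6 CPM in OY329 delta set-7, against 12.5 and 10.1 CPM in OY329, with a log2 fold change of 1.95 ± 0.262 (adjusted p = 0.00221). The groups did not overlap, and the change was 1.82 (adjusted p = 0.00812) without OY329 replicate 3, where both arms have an 8-base index, OY329 is 1 library and the spread comes from all other groups. In a fit on the 4 libraries alone it was 1.92 with an adjusted p of 0.0833. The level in the libraries labelled delta set-7 lay within the range of OY337.

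For cdt-2 the values were 61.1 and 7.36 CPM in OY329 delta set-7, against 3.89 and 5.25 CPM in OY329, and the test did not pass (log2 fold change 2.95 ± 1.01, adjusted p = 0.0941), although DESeq2 called it (adjusted p = 0.025), as did edgeR without OY329 delta set-7 replicate 2 (adjusted p = 0.0337). The first of these libraries was the highest of all 16 for cdt-2, with the replicate far below it. For gh6-2 the values were 12.1 and 5.24 CPM in OY329 delta set-7, against 18.6 and 16.1 CPM in OY329 (-0.99 ± 0.334, adjusted p = 0.0905, or 0.0108 without OY329 delta set-7 replicate 1). For cbh-1 they were 34.8 and 13.3 CPM, against 19.3 and 16.7 CPM, and for cdt-1 169 and 423 CPM, against 187 and 285 CPM, so that the OY329 values lay inside the range of the libraries labelled delta set-7. The gene gh3-4 had 7.97 and 4.12 CPM in OY329 delta set-7, against 1.52 and 7 CPM in OY329 (adjusted p = 0.597), where it was on no list of changed H3K27me2/3.

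Across the 14 libraries of the 7 strains, which form 7 pairs of replicates and share their medium, the log2 CPM of cdt-1 ran most closely with cbh-1 (Pearson's r = 0.93) and clr-1 (0.92) among the 10 genes. The gene gh5-1 had a negative r with each of the other 9, between -0.31 with gh6-2 and -0.78 with xlr-1. Of all other tested genes the closest to cdt-1 were NCU01430 (0.989) and NCU06524 (0.988), the closest to clr-1 were NCU00695 (0.972) and NCU08190 (0.968), and the closest to cbh-1 were NCU05840 (0.961) and NCU07935 (0.957). For xlr-1 they were NCU03415 (0.961) and NCU00722 (0.948), for gh3-4 NCU09957 (0.957) and NCU07049 (0.955), and for gh6-2 NCU09656 (0.949) and NCU09013 (0.919). For cdh-1 they were NCU05236 (0.929) and NCU06860 (0.919), for gh5-1 NCU09192 (0.904) and NCU01838 (0.895), for cdt-2 NCU06977 (0.89) and fbp-1 (0.888), the gluconeogenic fructose bisphosphatase, and for clr-2 NCU01917 (0.874) and NCU02038 (0.842).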

How the data were processed

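Poly-A+ mRNA libraries of 7 rearrangement strains and of OY329 delta set-7, 2 per group and 16 in all, were used. The deposited files hold counts of whole reads per gene, which the authors made with tools of which their notes name TopHat, SAMtools and HTSeq, among others. The versions, the annotation release and the use of strand are not given in the sources used here. Reads on no gene were 5.61% to 27% of a library and were left out. The deposited table of H3K27me2/3 changes was used for its lists only. Its fold changes and p-values are the authors' own and, with its 1 column of values per sample, were not used. Gene symbols and order come from the RefSeq table (assembly NC12), which matched 9729 of 9730 identifiers.

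Genes were filtered by filterByExpr, scaled by TMM and tested with edgeR 4.0.16 (R 4.3.3, limma 3.58.1), with Benjamini-Hochberg adjusted p-values over all tested genes at 0.05. Errors are standard errors (the log2 fold change over the square root of F). The contrasts among the strains used 14 libraries and the set-7 contrast all 16. CPM use TMM sizes over 16 libraries, and log2 CPM a prior count of 2. The code was tested on simulated data. Alternatives were DESeq2 1.42.0, no TMM, other filters, a replicate block, left-out libraries and strains and a prior count of 0.5. A reference without ALS159 was added after the data were seen. Replicates differed by more than sampling noise (chi-square of at least 11.8 per gene). The p-values rest on the spread between the 2 libraries of a group, pooled over all groups of a fit. The delta set-7 libraries carry isolate numbers in place of replicate numbers and were numbered in that order. The genes and lists were chosen with earlier results of these data known. Besides the 10 genes, the text names the 3 genes of a list with the highest mean CPM where a value is given, the 2 most alike genes of each member, the marker genes and set-7. Outside that rule it names gh61-4, gh6-3, gh7-1, NCU04951, NCU04953, NCU04942 and NCU10770 (which overlaps cdt-1), which were chosen after values were seen.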

Additional observations from a re-analysis of the deposited data

How the results depend on the processing

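Of the 30 calls of single genes, the set-7 contrast included, none changed direction over 637 alternative values, and 47 values no longer passed the threshold, 32 of them with 1 library left out. Of the 10 genes, calls over the left-out libraries numbered 5 to 10 for ALS159, 2 to 8 for UK2-32, 4 to 6 for OY329, 2 to 5 for OY337, 2 to 3 for UK3-41, 0 to 2 for AR16 and 0 to 1 for OY350, with 8 to 10 among the 7 strains together and 1 to 2 in the set-7 contrast. In OY350, where 0 passed, 1 gene passed with DESeq2, with OY329 left out and with ALS159 out of the reference. In UK2-32 3 of 6 calls were left with at least 10 counts in every library, a filter that drops the low genes. With ALS159 out of the reference, an alternative chosen after seeing the data, 0 genes passed in AR16 in place of 1, and 6 in UK3-41 in place of 3. Of these 6, gh5-1 was higher. In the set-7 contrast 2 passed with DESeq2 and 0 with only the 4 libraries compared, in place of 1. The highest minus the lowest strain mean of log2 CPM of gh3-4 was 4.70 with a prior count of 2 and 6.65 with 0.5.

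Counts over all genes moved by more than 1.5 times for some contrasts: ALS159 4213 calls (lowest 1915), AR16 763 (215 to 1155), OY337 897 (134 to 2174), OY350 402 (77 to 1343), UK2-32 2465 (641 to 3744) and UK3-41 4598 (lowest 2951), and in the set-7 contrast 620 (17 to 1023). Replicate numbers did not pair the strains: of 15 pairs of strains sharing numbers, 3 had a correlation of deviations over 0.1 (median -0.00182), and 3 of 6 strains correlated positively on average with the same number. With the replicate block, calls among the 10 genes numbered 10 for ALS159 (clr-2 gained, at adjusted p = 0.0287), 6 for UK2-32, 5 for OY337, 4 for OY329 in place of 6 (cdh-1, gh3-4 and clr-1 lost, at adjusted p = 0.0577, 0.384 and 0.082, and clr-2 gained, at 0.0367), 3 for UK3-41, 1 for AR16 and 0 for OY350. No block was fitted for the set-7 contrast, where the delta set-7 libraries carry no replicate number. Counts below about 10 reads, as for gh3-4, clr-2 and cdt-2, limit what can be seen, and only 2 libraries per group were at hand.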
